A study of Mus musculus with 8 samples.

Results

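The glial cell line-derived neurotrophic factor (GDNF) family was followed through 5 genes of mouse nephron progenitors: the ligand genes Gdnf and Nrtn, the co-receptor genes Gfra1 and Gfra2, and the receptor gene Ret. They were taken by symbol from a table of 24539 genes. The set was chosen by family and selected on the measured level of Gfra2, which was seen to be far higher in KO- and Het-labelled libraries than in WT- and SmoM2-labelled libraries. That pattern of Gfra2 is therefore given below as a description with no test. The other 4 genes entered by family and not by their values.

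Ligands of this family bind a co-receptor of the GFR-alpha type, which is anchored to the outside of the membrane, and the pair then activates the receptor tyrosine kinase RET. GDNF binds best to the product of Gfra1, and neurturin, the product of Nrtn, binds best to that of Gfra2. In the developing kidney, the mesenchyme around the ureteric bud makes GDNF, and the tips of the bud carry RET, so that the signal drives growth and branching of the bud. Gfra1 is made both in the bud and in the mesenchyme, whereas Gfra2 is best known from neurons.

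The progenitors were sorted by FACS from kidneys at E18.5 as cells positive for Six2GFPcre, a transgene active in nephron progenitors that makes GFP and the Cre recombinase, and which all 4 groups carry. KO-labelled embryos were Smo c/c, with both alleles open to deletion by Cre in these cells, and Het-labelled embryos were Smo c/+. WT-labelled embryos were Smo +/+, and SmoM2-labelled embryos were Smo +/+ with the allele Rosa26 SmoM2/+, from which an active form of Smo is made. Smo relays Hedgehog signals from the membrane into the cell, and according to the title the study asks whether progenitors need that signal. Each group had 2 libraries of polyadenylated RNA, and the labels do not say whether a library holds 1 embryo or several.

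Total counts lay between 4422305 and 4442697 in the KO-labelled libraries, and between 5929770 and 10305398 in the other 6. Smo, the targeted gene, was at 12.1 ± 1.39 CPM (counts scaled by library size, mean ± SD, n = 2) in KO-labelled and at 369 ± 8.48 CPM in WT-labelled libraries. The Het-labelled libraries held 19.2 ± 6.73 CPM, 19.4-fold under the WT-labelled level although their label leaves 1 wild-type allele, so all groups are named by label only. Xist, which marks female cells, had at most 2 counts in both KO-labelled and at least 9663 in both Het-labelled libraries, while the other groups held 1 library of each kind. Summed markers of nephron progenitors (8 genes, with Six2 and Cited1 among them, none at 0) were 3416 to 4021 CPM in KO-labelled libraries. The sums were 4218 to 4727 CPM in Het-labelled, 2870 to 3274 in WT-labelled and 3067 to 3200 CPM in SmoM2-labelled libraries. All KO- and Het-labelled sums thus lay above all others. Against WT-labelled libraries, 2 of the 8 were higher and 0 lower in KO-labelled libraries (edgeR adjusted p under 0.05). In Het-labelled libraries 4 were higher and 1 lower. Whether this bears on the levels of the family genes was not tested.

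Gdnf (ENSMUSG00000022144.4) lies on the plus strand of mouse GRCm38 at chr15:7810846-7837575, and Nrtn (ENSMUSG00000039481.5) lies on the minus strand at chr17:56751325-56757530. The 250 bases before a RefSeq start of each ligand gene (GRCm38.p6) are shown, with every CG pair in capitals. Whether these bases bear on the levels of the genes was not tested. The Gdnf stretch is chr15:7809798-7810047 on the plus strand and holds 7 such pairs, and the Nrtn stretch is chr17:56757549-56757798 on the minus strand and holds 19. The RefSeq start that follows this Gdnf stretch lies before the locus start given above. Gdnf has another RefSeq start, whose window at chr15:7813477-7813726 holds 14 pairs and is not printed; the first start was taken, so the contrast in pairs between the ligands depends on that choice.
Gdnf: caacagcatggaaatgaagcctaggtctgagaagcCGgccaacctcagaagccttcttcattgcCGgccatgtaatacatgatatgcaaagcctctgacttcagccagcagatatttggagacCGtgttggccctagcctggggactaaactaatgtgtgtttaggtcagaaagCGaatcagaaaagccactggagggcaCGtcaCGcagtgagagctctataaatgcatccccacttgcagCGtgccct
Nrtn: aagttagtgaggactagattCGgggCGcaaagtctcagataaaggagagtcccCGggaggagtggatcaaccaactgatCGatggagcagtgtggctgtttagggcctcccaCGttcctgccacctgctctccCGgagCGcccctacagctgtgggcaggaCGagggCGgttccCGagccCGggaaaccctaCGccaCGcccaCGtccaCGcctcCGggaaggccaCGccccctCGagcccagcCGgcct
Over all RefSeq windows of this kind the median was 6 CG pairs. RefSeq windows of 300 bases (250 before and 50 after a start) were matched for Gdnf, Nrtn and Gfra1, 4 windows in all. The letters GACCACCCA, a consensus of the GLI factors that act at the end of Hedgehog signalling, were searched on both strands and occurred in none of these 4, and in 0.253% of all 32851 windows.

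Gdnf, the main growth signal from these cells to the ureteric bud, was lowest in the KO-labelled libraries. Its level was 118 and 83.8 CPM in the KO-labelled libraries and 148 and 192 CPM in the Het-labelled libraries. It was 157 and 172 CPM in the WT-labelled pair and 188 and 271 CPM in the SmoM2-labelled pair. Both KO-labelled libraries lay under all 6 others, and the Het- and WT-labelled ranges overlapped. Compared with WT-labelled libraries, Gdnf fell in KO-labelled libraries by 0.70 on the log2 scale (SE 0.21, edgeR adjusted p 0.0308), or 1.63-fold. In this comparison 23% of all tested genes (11.6% higher, 11.4% lower) were called at an adjusted p under 0.05, the threshold used throughout. The call was lost, with adjusted p of 0.178, 0.0510 and 0.0797, without KO replicate 2, WT replicate 1 or WT replicate 2. It was also lost with sex as a term in the fit (-0.54, adjusted p 0.0747) and with the trend over gene length removed (-0.55, adjusted p 0.114). In sorted bulk cells, fewer cells of a type and less RNA per cell cannot be told apart, here and in the results that follow.

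Between Het- and WT-labelled libraries Gdnf differed by 0.046 (95% interval -0.39 to 0.48, edgeR adjusted p 0.891), in a comparison that called 25.3% of all tested genes (13.1% higher, 12.2% lower). Gdnf was also lower in KO- than in Het-labelled libraries, by 0.75 on the log2 scale (-0.75, SE 0.21, edgeR adjusted p 0.0444), where 9.43% of all tested genes were called (4.33% higher, 5.1% lower). That call was lost with sex as a term (-0.41, adjusted p 0.334), with the gene length trend removed (-0.64, adjusted p 0.115) and without KO replicate 1 (adjusted p 0.0556), KO replicate 2 (0.206), Het replicate 1 (0.107) or Het replicate 2 (0.224). Its level was 229.6 ± 58.4 CPM in the SmoM2-labelled libraries against 164 ± 11.1 CPM in the WT-labelled libraries. The ranges did not overlap, but the difference of 0.48 (95% interval 0.04 to 0.92) had an edgeR adjusted p of 0.601 and was not called. That comparison called 0.223% of all tested genes (0.156% higher, 0.0669% lower). With no filter beyond 1 count per gene, Gdnf was called in it with an adjusted p of 0.0336.

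Nrtn, whose product prefers the co-receptor encoded by Gfra2, was higher in the KO- and Het-labelled libraries. It stood at 19.3 and 12.6 CPM in the KO-labelled libraries, at 22.1 and 18.7 CPM in the Het-labelled, at 8.20 and 9.26 CPM in the WT-labelled and at 9.0 and 8.32 CPM in both SmoM2-labelled ones. Every KO- and Het-labelled library lay above every WT- and SmoM2-labelled library. How many of all tested genes separate these libraries in such a way was not counted, here and in the results that follow. Nrtn rose 2.34-fold in Het- against WT-labelled libraries (log2 change 1.23 with SE 0.24, edgeR adjusted p 0.00445), and this call held under all 17 alternatives. In KO- against WT-labelled libraries it rose 1.83-fold (log2 0.87, SE 0.25, edgeR adjusted p 0.0275). The latter call was lost without KO replicate 1 (0.53, adjusted p 0.236), WT replicate 1 (0.78, adjusted p 0.108) or WT replicate 2 (0.92, adjusted p 0.0630). It was also lost with the 4 compared libraries alone (0.84, adjusted p 0.0542) and with the gene length trend removed (0.54, adjusted p 0.135). The SmoM2- minus WT-labelled difference was -0.0087 (95% interval -0.54 to 0.53, edgeR adjusted p 0.997), and the KO- minus Het-labelled difference was -0.36 (95% interval -0.88 to 0.17, edgeR adjusted p 0.369).

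**Figure D1:**
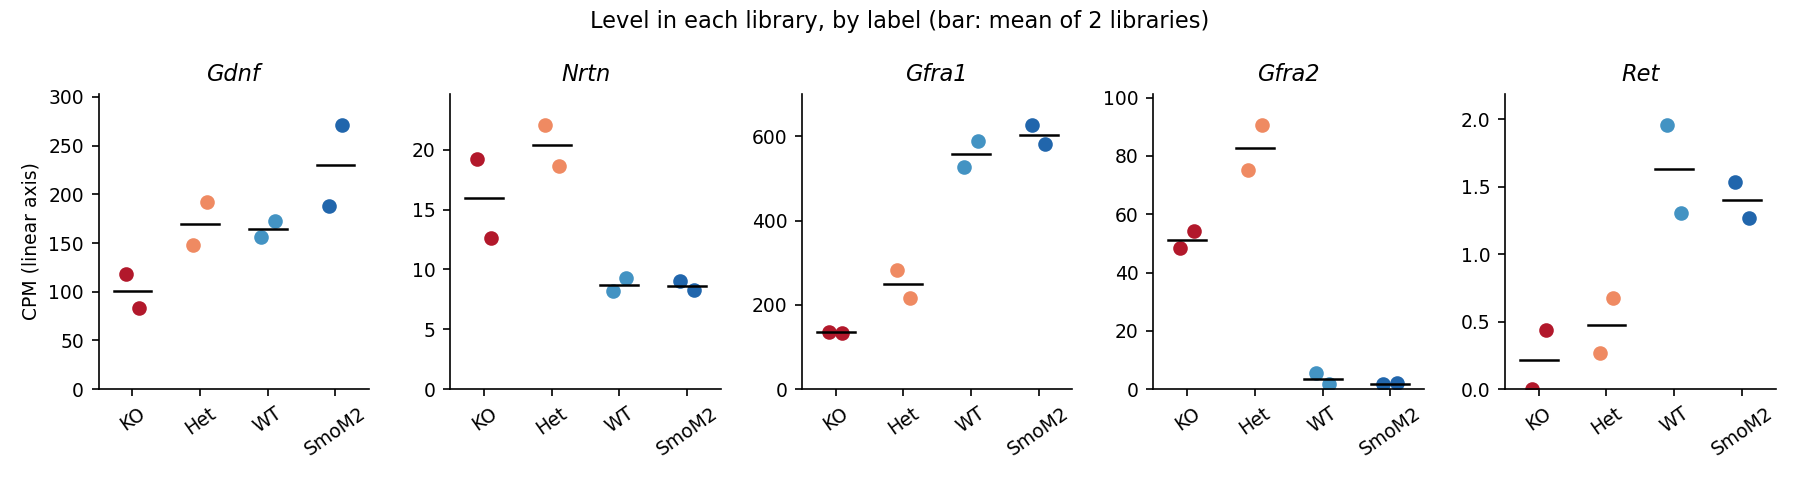
Level of each of the 5 genes in CPM (linear axis from 0, a scale of its own per panel) in every library, by group label; points are libraries and bars are means of 2. Gfra1 and Ret stand lower, and Nrtn and Gfra2 higher, in all 4 KO- and Het-labelled libraries than in all 4 WT- and SmoM2-labelled libraries, whereas Gdnf overlaps between these sides. Gfra2 was selected on this pattern, and Ret passed the filter on low counts through its WT- and SmoM2-labelled values. The share of all tested genes that separate in this way was not counted, so the separation is a description only.

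Gfra1 encodes the co-receptor for GDNF and is at chr19:58235604-58455909 on the minus strand (ENSMUSG00000025089.15, protein coding). An antisense gene, Gm16277, overlaps its exons on the plus strand and is not listed in the count table. The labels' protocol names no step that marks strand, so reads of this gene and of Gfra1 cannot be told apart there. Gfra1 was at 135 and 134 CPM in the KO-labelled and at 282 and 215 CPM in the Het-labelled libraries. It was at 526 and 589 CPM in the WT-labelled pair and at 626 and 581 CPM in the SmoM2-labelled pair. The order of the means was KO, Het, WT and SmoM2, with no overlap between KO and Het or between Het and WT, and with overlap between WT and SmoM2.

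Gfra1 fell by 2.05 on the log2 scale, or 4.14-fold, in KO- against WT-labelled libraries (SE 0.15, edgeR adjusted p 3.42e-05). It fell by 1.16, or 2.24-fold, in Het- against WT-labelled libraries (SE 0.14, edgeR adjusted p 0.000422). Both calls held under all 17 alternatives, with log2 changes from -2.13 to -1.91 and from -1.41 to -1.0. These comparisons share the WT-labelled libraries, so they are not independent of each other. Between KO- and Het-labelled libraries Gfra1 fell by 0.89 on the log2 scale (SE 0.15, edgeR adjusted p 0.00810). Without Het replicate 1 that difference was -0.68 with an adjusted p of 0.101, and the call was lost. SmoM2- and WT-labelled libraries differed by 0.11 (95% interval -0.20 to 0.42, edgeR adjusted p 0.933).

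Gfra2 encodes the co-receptor for neurturin and lies at chr14:70890120-70979838 on the plus strand (ENSMUSG00000022103.10, protein coding). Its values chose this set of genes and are given here as a description. It stood at 48.3 and 54.2 CPM in the KO-labelled libraries, from 218 and 249 counts, and at 75.1 and 90.5 CPM in the Het-labelled libraries, from 562 and 533 counts. The WT-labelled libraries held 5.5 and 1.74 CPM, from 59 and 16 counts, and those labelled SmoM2 held 1.74 and 2.08 CPM, from 17 and 18 counts. The lowest KO- or Het-labelled library stood at 48.3 CPM and the highest WT- or SmoM2-labelled library at 5.5 CPM. The fitted log2 difference from WT-labelled libraries was 3.78 for KO-labelled and 4.47 for Het-labelled libraries. WT replicate 1 decided much of that size: without it the values were 4.86 and 5.55, and without WT replicate 2 they were 3.18 and 3.88.

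The comparisons within each side did not enter the choice of Gfra2. KO-labelled libraries held less of it than Het-labelled libraries and did not overlap with them. The difference of -0.69 (95% interval -1.26 to -0.12) had an edgeR adjusted p of 0.115 and was not called. With sex as a term, which separates these groups, it was -1.57 (adjusted p 0.0538). It was called with the 4 compared libraries alone (adjusted p 0.0211), without WT replicate 1 (0.0168) or WT replicate 2 (0.0166), and with no filter beyond 1 count per gene (0.00185). SmoM2- against WT-labelled libraries gave -0.96 (95% interval -1.93 to 0.01, edgeR adjusted p 0.655), with overlapping ranges. This value was -1.51 without WT replicate 2, where it was called (adjusted p 0.0474), and 0.12 without WT replicate 1 (adjusted p 1).

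Ret encodes the receptor tyrosine kinase and is at chr6:118151745-118197718 on the minus strand (ENSMUSG00000030110.13, protein coding). It had few counts in all libraries, and as background, its usual site in the kidney is the ureteric bud. Its counts were 0 and 2 in the KO-labelled, 2 and 4 in the Het-labelled, 21 and 12 in the WT-labelled and 15 and 11 in the SmoM2-labelled libraries. All of the KO- and Het-labelled libraries were thus under all others, and Ret passed the filter on low counts through its WT- and SmoM2-labelled values. Pooled over libraries, the WT- to KO-labelled ratio was 7.55, and the WT- to Het-labelled ratio was 3.69. Since Ret passed that filter only through the groups where it was high, its differences between the sides are given with no test.

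Ret differed by -0.22 (95% interval -1.43 to 0.99, edgeR adjusted p 0.976) from WT- to SmoM2-labelled libraries. The pooled Het- to KO-labelled ratio was 2.04, with an exact 95% interval of 0.366 to 20.7 that covers counting error only. Markers of the ureteric bud other than Ret (9 genes) summed to 33.1 to 35.2 CPM in KO-labelled, 25.8 to 29.2 in Het-labelled, 38.6 to 40.4 in WT-labelled and 59.7 to 72.7 CPM in SmoM2-labelled libraries. Calb1 and Gata3 had at most 5 and 2 counts in any library, and Wnt9b had at most 1. Hoxb7, at 19.9 to 27.7 CPM, made up much of each sum and was at 25.2 and 26.1 CPM in KO-labelled against 19.9 and 23.7 CPM in WT-labelled libraries. Wnt11, at 3.10 and 1.09 CPM in KO-labelled and 9.79 and 7.52 CPM in WT-labelled libraries, differed most between these groups in CPM. The part of ureteric cells in the Ret difference was not tested.

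**Figure D2:**
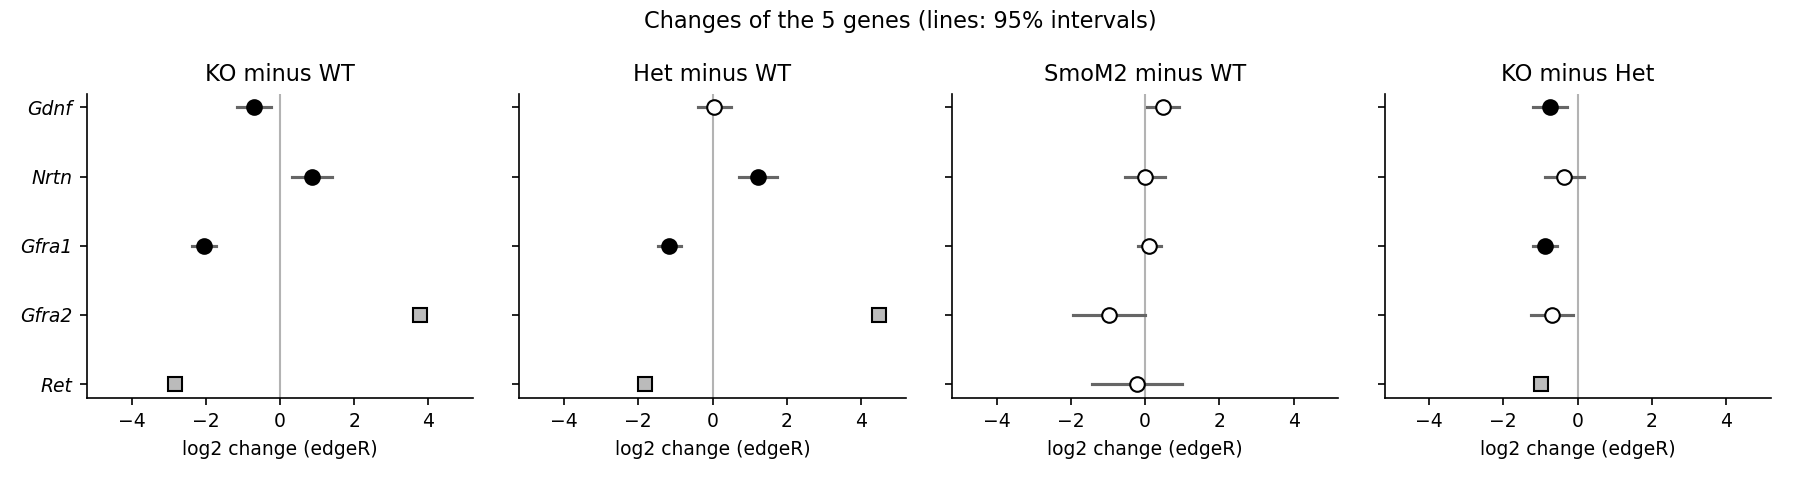
Log2 change (edgeR) of the 5 genes in 4 comparisons of group labels; circles are estimates, lines their 95% intervals, filled circles have an adjusted p under 0.05, and grey squares are Gfra2 and Ret values given without a test. Gfra1 stands at -2.05 and -1.16 against WT-labelled libraries, and no gene is called between SmoM2- and WT-labelled libraries.

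Levels of different genes were compared per transcript length with the authors' RPKM values. In the WT-labelled libraries Gfra1 stood at 93.9 and 98.3 RPKM, above Gdnf at 27.3 and 28.1, Nrtn at 6.66 and 7.03, and Gfra2 at 1.34 and 0.396. In the KO-labelled libraries Gfra1 was at 24.1 and 24.3 RPKM, Gdnf at 20.6 and 14.8, Nrtn at 15.6 and 10.4, and Gfra2 at 11.7 and 13.4. The 4 genes were thus close together in KO-labelled libraries and far apart in WT-labelled libraries. Ret was at most 0.226 RPKM in any library.

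The ratio of Gfra1 to Gfra2 RPKM was 2.05 and 1.82 in the KO-labelled and 2.76 and 1.75 in the Het-labelled libraries. It was 70.2 and 248 in the WT-labelled and 264 and 205 in the SmoM2-labelled libraries, so the 4 libraries with few Gfra2 counts gave ratios that varied widely. As a share of both co-receptors, Gfra2 made up 34.1 ± 1.93% in KO-labelled, 31.5 ± 6.92% in Het-labelled, 0.902 ± 0.709% in WT-labelled and 0.431 ± 0.0772% in SmoM2-labelled libraries (SD, n = 2). The summed RPKM of both co-receptors was 35.8 and 37.7 in the KO-labelled and 65.8 and 57.5 in the Het-labelled libraries, against 95.2 to 106 in the other 4. All of the KO- and Het-labelled sums lay under the others.

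The ligands shifted in their ratio as well. Gdnf exceeded Nrtn 1.32- and 1.42-fold in RPKM in the KO-labelled and 1.44- and 2.2-fold in the Het-labelled libraries. It exceeded Nrtn 4.09- and 3.99-fold in the WT-labelled and 4.49- and 6.98-fold in the SmoM2-labelled libraries. The KO- and Het-labelled ratios lay below all others.

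**Figure D3:**
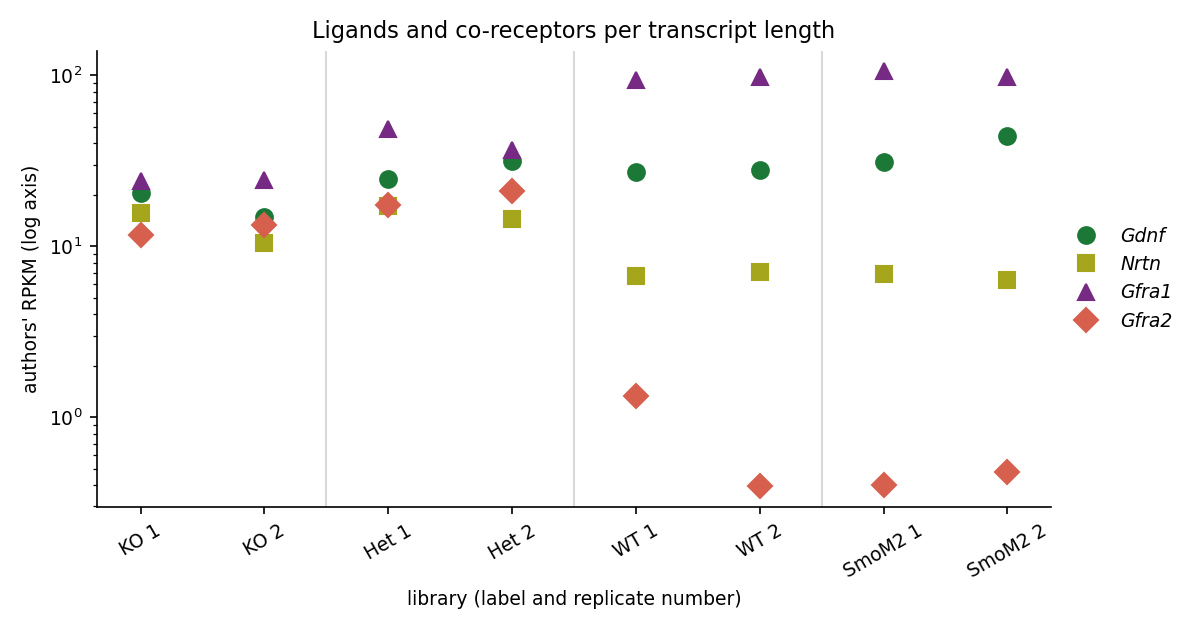
The authors' RPKM (log axis) of Gdnf, Nrtn, Gfra1 and Gfra2 in each library, with 2 libraries per label. The genes lie within 10.4 to 24.3 RPKM in KO-labelled libraries, while Gfra1 is at 93.9 or more and Gfra2 at 1.34 or less in WT- and SmoM2-labelled libraries.

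The rest of the family was described from a list of ligands and receptors that the rule did not use. Artn and Pspn, the genes of the other ligands of this family, had at most 8 and 11 counts in any library and were not tested. Gfral, whose product is the receptor for the distant relative GDF15, had no count in any library. Gfra4, which encodes the co-receptor for persephin, the Pspn product, was at 15.3 ± 1.89 CPM in KO-labelled, 11.4 ± 1.46 in Het-labelled, 5.31 ± 0.654 in WT-labelled and 5.33 ± 1.46 CPM in SmoM2-labelled libraries. It rose in KO- against WT-labelled libraries (log2 change 1.52 with SE 0.28, edgeR adjusted p 0.00341), a call that held under all 17 alternatives. Its rise in Het- against WT-labelled libraries (log2 1.11, edgeR adjusted p 0.0135) was lost without Het replicate 1 or WT replicate 1, with an adjusted p up to 0.107.

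Gfra3 encodes the co-receptor for artemin, the Artn product, and was scarce, with 11 and 3 counts in the KO-labelled, 6 and 6 in the Het-labelled, 40 and 38 in the WT-labelled and 26 and 19 in the SmoM2-labelled libraries. Like Ret, Gfra3 passed the filter on low counts through its WT- and SmoM2-labelled values, so its differences between the sides are given with no test. The fitted log2 difference from WT-labelled libraries was -1.34 in KO-labelled and -2.10 in Het-labelled libraries. The counts of pathway genes below include its call in Het- against WT-labelled libraries, which was lost without Het replicate 1 or Het replicate 2. Ncam1, which encodes an adhesion molecule that can bind GDNF with GFR-alpha in place of RET, was abundant. It stood at 447 ± 15.4 CPM in KO-labelled, 619 ± 69.6 in Het-labelled, 268 ± 20.05 in WT-labelled and 207 ± 2.79 CPM in SmoM2-labelled libraries. Ncam1 rose by 0.73 in KO- and by 1.205 in Het- against WT-labelled libraries (edgeR adjusted p 0.00267 and 0.000150), and both calls held under all alternatives.

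Other genes of the pathway were then counted by role, leaving out the 5 genes above. Of 55 listed genes 48 passed the filter on low counts. In KO- against WT-labelled libraries 9 rose and 13 fell, or 45.8% of them, beside 23% of all tested genes, and their median log2 change was 0.10 beside 0.03 over all tested genes. In Het- against WT-labelled libraries 15 rose and 8 fell, or 47.9% beside 25.3% of all tested genes, with a median of 0.20 beside -0.02. In KO- against Het-labelled libraries 2 rose and 6 fell, or 16.7% beside 9.43% of all tested genes, with a median of -0.24 beside 0.02. SmoM2- against WT-labelled libraries gave 1 called gene, or 2.08% beside 0.223% of all tested genes, with a median of 0.04 beside 0.00. Called under all 17 alternatives were 14 of the 22 genes in the first, 7 of 23 in the second and 1 of 8 in the third comparison. The genes named below with no further remark are among these.

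Genes that promote Gdnf expression or its action (18 listed, 17 tested) did not move as a block. In KO- against WT-labelled libraries 4 rose and 3 fell, or 41.2% beside 23% of all tested genes. In Het- against WT-labelled libraries 8 rose and 3 fell, or 64.7% beside 25.3%. Eya1 and Pax2, which encode transcriptional regulators needed for Gdnf, were at 378 ± 69.8 and 603 ± 22.3 CPM in KO-labelled and at 437 ± 0.431 and 559 ± 129 CPM in WT-labelled libraries. Neither was called there (edgeR adjusted p 0.334 and 0.646). Hoxa11, a patterning factor that acts with Eya1 and Pax2 on Gdnf, rose from 134 ± 8.04 CPM in WT-labelled to 252 ± 10.5 CPM in KO-labelled and 247 ± 2.73 CPM in Het-labelled libraries (edgeR adjusted p 0.00104 and 0.00107). Gdf11, a secreted factor required for Gdnf expression, rose from 33.3 ± 3.23 to 56.2 ± 7.40 and 74.0 ± 1.48 CPM (edgeR adjusted p 0.00424 and 0.000369).

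Hs2st1, which makes the sulfated heparan chains that GDNF signalling needs, fell from 182 ± 25.3 CPM in WT-labelled to 103 ± 12.1 CPM in KO-labelled and 108 ± 5.37 CPM in Het-labelled libraries (edgeR adjusted p 0.00266 and 0.00350). Frem1, a matrix protein of the surface between bud and mesenchyme, was at 84.7 ± 8.31, 110.3 ± 20.4, 193 ± 15.5 and 299.8 ± 11.7 CPM in KO-, Het-, WT- and SmoM2-labelled libraries. It fell by 1.19 in KO- and by 0.81 in Het- against WT-labelled libraries (edgeR adjusted p 0.000483 and 0.00290), and was not called in SmoM2- against WT-labelled libraries (log2 0.63, edgeR adjusted p 0.135).

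Genes that restrict Gdnf or its signal (6 listed, all tested) were called in 5 cases between KO- and WT-labelled libraries, 2 higher and 3 lower, or 83.3% beside 23% of all tested genes. Between Het- and WT-labelled libraries 1 was higher and 1 lower, or 33.3% beside 25.3%. Foxc1 and Robo2 are needed to keep Gdnf to its normal domain. Foxc1 fell by 1.36 in KO- against WT-labelled libraries (SE 0.15, edgeR adjusted p 0.000267). Robo2 fell by 1.27 in the same comparison (SE 0.15, edgeR adjusted p 0.000426). Robo2, the receptor for the Slit2 product, was at 201 ± 2.41 CPM in KO-labelled, 464 ± 96.8 in Het-labelled, 485 ± 48.8 in WT-labelled and 619 ± 30.9 CPM in SmoM2-labelled libraries. It was the pathway gene that also kept its call under all alternatives in KO- against Het-labelled libraries, where it fell by 1.21 (edgeR adjusted p 0.00460). Bmp4, a secreted inhibitor of bud outgrowth, rose from 19.4 ± 6.61 CPM in WT-labelled to 83.9 ± 6.90 CPM in KO-labelled libraries (log2 2.11, SE 0.24, edgeR adjusted p 0.000304).

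The adaptors that carry the signal from RET inside the cell (12 listed, 10 tested) gave 1 rise and 3 falls in KO- against WT-labelled libraries, or 40% beside 23% of all tested genes, and 1 rise and 2 falls in Het- against WT-labelled libraries, or 30% beside 25.3%. Grb7 rose 2.96 on the log2 scale in KO- against WT-labelled libraries (SE 0.31, edgeR adjusted p 0.000209). Its level was 16.9 ± 2.997 CPM in KO-labelled and 2.15 ± 0.119 CPM in WT-labelled libraries. Frs2 and Gab1, docking proteins that other receptor kinases also use, fell by 0.87 and 0.70 in that comparison (edgeR adjusted p 0.00176 and 0.00371).

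Genes known as targets of RET in the tips of the bud (10 listed, 9 tested) gave no rise and 3 falls in KO- against WT-labelled libraries, or 33.3% beside 23% of all tested genes. In Het- against WT-labelled libraries they gave 3 rises and 1 fall, or 44.4% beside 25.3%. Wnt11, the secreted signal of bud tips, had 14 and 5 counts in the KO-labelled, 9 and 4 in the Het-labelled, 105 and 69 in the WT-labelled and 236 and 296 in the SmoM2-labelled libraries. Wnt11 also passed the filter on low counts through its WT- and SmoM2-labelled values, and the counts of falls above include it. Its fitted log2 differences from WT-labelled libraries, -2.05 in KO-labelled and -3.14 in Het-labelled, are therefore given with no test. Its rise in SmoM2- against WT-labelled libraries (log2 1.75, edgeR adjusted p 0.0430) was lost under 8 of 16 alternatives, with an adjusted p up to 0.332. These were without KO, WT or SmoM2 replicate 1 or 2, with the 4 compared libraries alone and with the library totals that the RPKM values imply. Etv4, an ETS factor downstream of RET and of FGF receptors, was at 392 ± 50.6 CPM in KO-labelled and 319.8 ± 40.2 CPM in WT-labelled libraries (edgeR adjusted p 0.135). At 445 ± 13.7 CPM it was called higher in Het- against WT-labelled libraries (log2 0.48, edgeR adjusted p 0.0242), which was lost without Het replicate 1, Het replicate 2 or WT replicate 1, with an adjusted p up to 0.153.

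**Figure D4:**
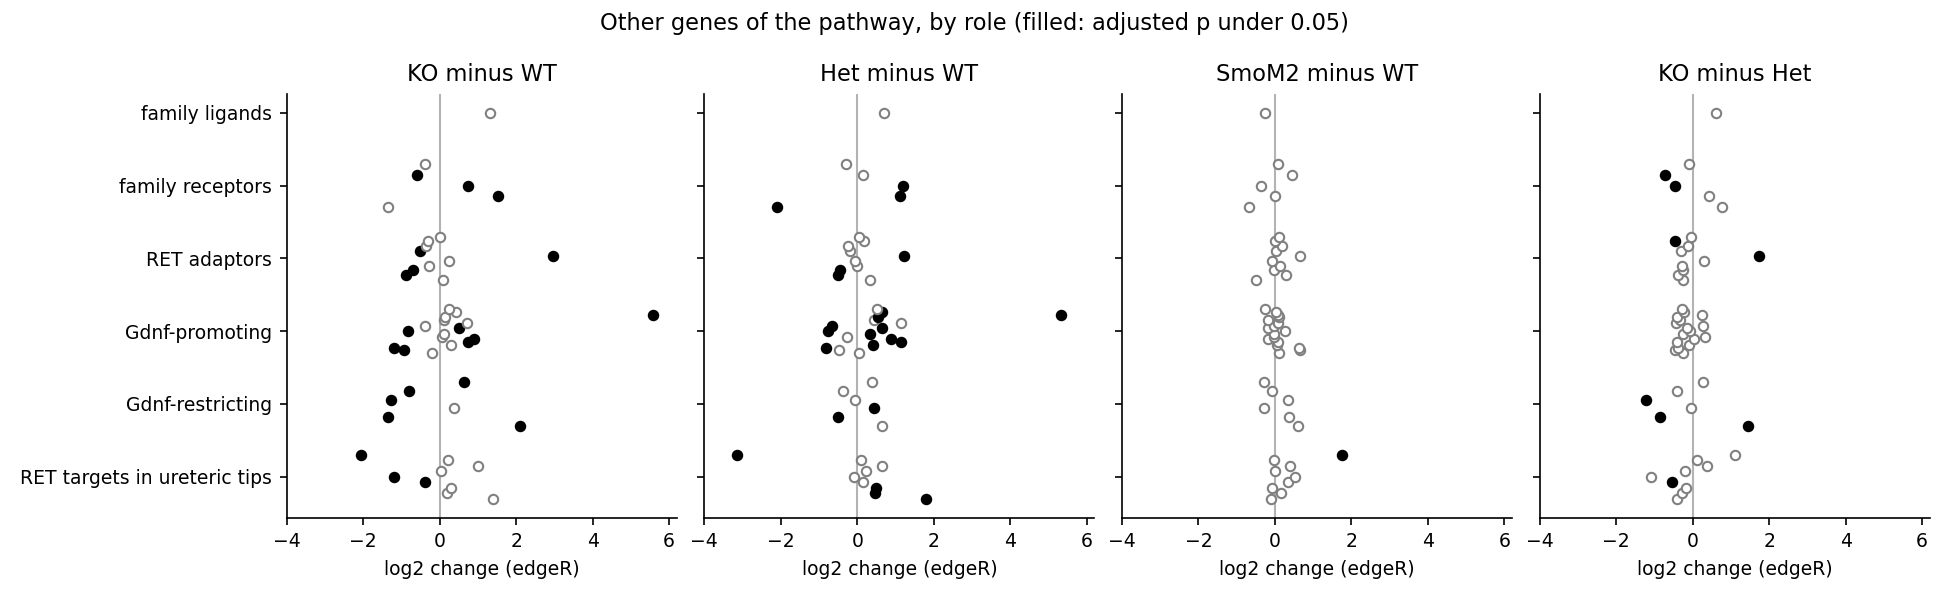
Log2 change (edgeR) of the 48 tested pathway genes outside the 5 genes, by role, in 4 comparisons of group labels; each point is a gene and filled points have an adjusted p under 0.05. Filled points lie on both sides of 0 in the KO- and Het- against WT-labelled panels, and the SmoM2- against WT-labelled panel has 1, Wnt11.

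The genes nearest to Gfra2 in profile were found by the root mean square difference of centred log2 CPM over the 8 libraries, among 12458 other genes with an average log2 CPM of at least 1. They were Cd74 (0.57), Adora2a (0.58), Ppp1r1b (0.62), 2610507I01Rik (0.67) and H2-Eb1 (0.75). Cd74 and H2-Eb1 belong to antigen presentation by class II molecules, Adora2a is an adenosine receptor, and Ppp1r1b is a phosphatase inhibitor regulated by cyclic AMP. Cd74 was at 83.7 ± 4.11 CPM in KO-labelled, 119.8 ± 15.01 in Het-labelled, 13.9 ± 8.56 in WT-labelled and 5.70 ± 1.41 CPM in SmoM2-labelled libraries. Adora2a was higher in KO-labelled libraries (42.7 ± 4.61 CPM) than in Het-labelled libraries (28.1 ± 0.342 CPM), the reverse of Gfra2.

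**Figure D5:**
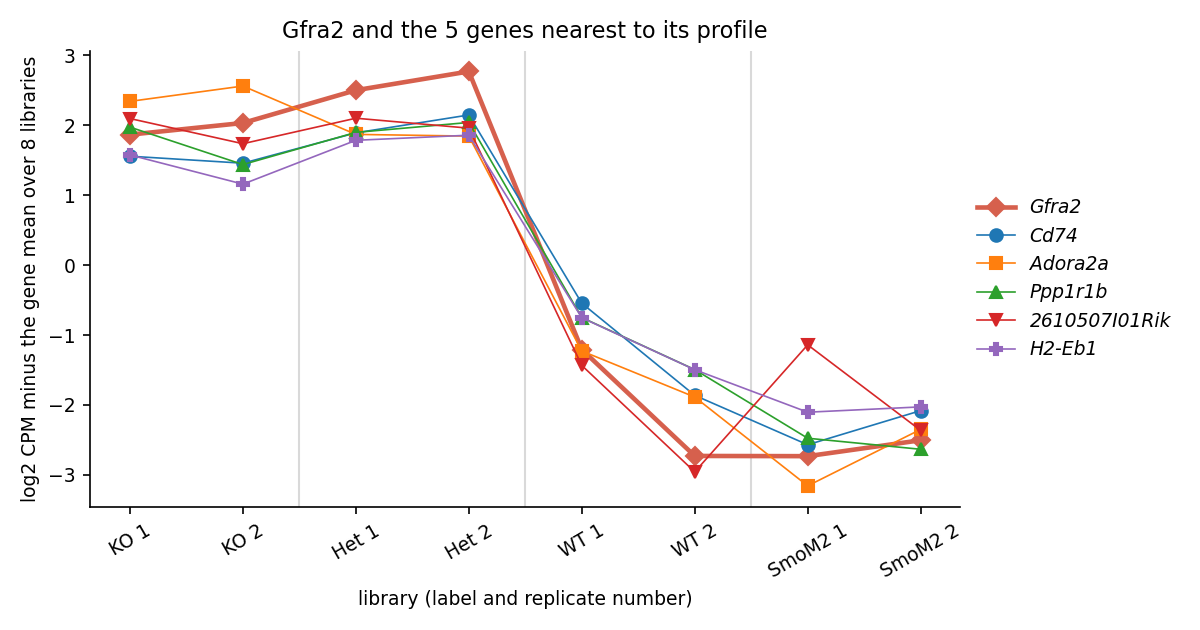
Log2 CPM of Gfra2 and its 5 nearest genes in each library, minus each gene's mean over the 8 libraries; lines join the libraries for reading only. All 6 genes are above their mean in the 4 libraries labelled KO or Het and below it in the 4 others, and WT replicate 1 lies above WT replicate 2 for each.

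The other 4 genes had closer neighbours than Gfra2. This measure is not scaled and grows with the size of a gene's changes. The group means of Gfra2 span 5.26 log2 units, against 1.18 to 2.16 for the other 4 genes. Nearest to Gfra1 were Syt7 (0.095), Slc12a2 (0.16) and Ror1 (0.17). Nearest to Nrtn were Map3k10 (0.12), Cdk2ap2 (0.13) and Lime1 (0.13), and nearest to Gdnf were Hivep2 (0.14), Hoxb3 (0.15) and Slco5a1 (0.16). For Ret, with its few counts, they were Nav3 (0.27), Tmsb15b1 (0.29) and Dgkh (0.32). Slc12a2, the gene of a sodium, potassium and chloride transporter, was at 316 ± 33.2, 536 ± 131, 1003 ± 40.2 and 1222 ± 87.1 CPM in KO-, Het-, WT- and SmoM2-labelled libraries.

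Markers of other cell types were set beside Gfra2, Gfra1 and Nrtn. Neural crest and neuron markers (9 genes) summed to 37.7 to 49.6 CPM in KO-labelled and 35.3 to 37.4 in Het-labelled libraries, against 20.9 to 26.0 in WT-labelled and 19.2 to 25.6 CPM in SmoM2-labelled libraries. Dbh had no count in any library and Sox10 had at most 4, while Elavl4 gave 12.4 to 36.8 CPM and most of each sum. Immune markers (6 genes) summed to 14.2 to 25.7, 47.0 to 48.1, 32.4 to 32.7 and 27.6 to 33.3 CPM in KO-, Het-, WT- and SmoM2-labelled libraries, with at most 1 count of Ptprc in any. Cd68 made up the largest part of each sum, at 10.8 and 13.9 CPM in KO-labelled libraries and 20.5 to 44.8 CPM in the others. Csf1r and C1qa were at 5.54 and 5.98 CPM in KO replicate 1, the highest of all 8 libraries, and at 0 and 0.218 CPM in KO replicate 2.

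Genes that respond to dissociation stress (10 genes) summed to 4073 to 5946 CPM in KO-labelled and 7943 to 7987 CPM in Het-labelled libraries. They summed to 2881 to 3026 CPM in WT-labelled and 3282 to 4708 CPM in SmoM2-labelled libraries. The KO- and SmoM2-labelled ranges overlapped. Egr1, at 1337 to 3508 CPM, made up the largest part of each sum. Atf3 was highest in SmoM2 replicate 2, at 16.5 CPM, against 2.88 and 2.83 CPM in KO-labelled libraries. Markers of the renal vesicle (8 genes), the first epithelial stage of the nephron, summed to 1341 to 1657 CPM in KO-labelled libraries and to 445 to 745 CPM in the other 6. Against WT-labelled libraries, 7 of the 8 were called higher in KO-labelled and 2 in Het-labelled libraries, and 0 lower in either. Fgf8 was at 64.3 and 69.0 CPM in Het-labelled against 4.01 and 8.28 CPM in WT-labelled libraries. Pax8 was at 270 and 298 CPM against 156 and 173 CPM in these groups. Stromal markers (9 genes) summed to 93.8 to 639 and 154 to 331 CPM in KO- and Het-labelled libraries. The sums were 335 to 509 and 548 to 679 CPM in WT- and SmoM2-labelled libraries. Col1a1 and Col3a1 made up most of the KO replicate 1 value, at 380 and 158 CPM, against 32.9 and 17.6 CPM in KO replicate 2. Foxd1 was at 12.8 and 3.70 CPM in KO- and 22.5 and 14.6 CPM in Het-labelled libraries. It was at 197 and 171 CPM in WT- and 385 and 301 CPM in SmoM2-labelled libraries. Of the 9 genes, 1 was called higher and 1 lower in KO- against WT-labelled libraries. Podocyte markers (6 genes) summed to 43.8 to 60.2 and endothelial markers (7 genes) to 10.3 to 22.1 CPM over all libraries. Erythroid markers (4 genes) summed to 8.49 to 29.9 and 11.04 to 16.2 CPM in KO- and Het-labelled libraries. They summed to 2.61 to 3.92 and 2.31 to 4.81 CPM in WT- and SmoM2-labelled libraries, with no overlap between these sides. Hbb-bs had 73 and 18 counts in KO-, 66 and 12 in Het-, 10 and 18 in WT- and 17 and 12 in SmoM2-labelled libraries. Hba-a1 had 59 and 20, 48 and 49, 11 and 11, and 26 and 4 counts in the same order. Hba-a1 passed the filter on low counts through its KO- and Het-labelled values, so the erythroid differences are given with no test. The part of these cells or of stress in the changes of the 5 genes was not tested.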

How the data were processed

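Polyadenylated RNA of 8 libraries was analysed, 2 for each of 4 genotype labels. The deposited table gives raw counts per gene, with RPKM computed by the authors and the length of each gene. STAR, featureCounts, Subread and mm10 are named in the submitters' processing notes, without versions; the strand setting and annotation are not given in the sources used here. Positions are from GENCODE M21 (GRCm38) and promoter windows from RefSeq.

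Counts were tested with edgeR 4.0.16 (R 4.3.3): filterByExpr on the groups left 13459 genes, libraries were scaled by TMM, and a quasi-likelihood model with a mean per group was fitted to all 8 libraries (4 residual degrees of freedom, biological coefficient of variation 13.5%). P-values are two-sided and adjusted by Benjamini-Hochberg over all tested genes. They measure the spread between these libraries, which may be technical. With 2 against 2, an exact permutation test cannot go below 0.333, so none is given. The code was checked on simulated counts. A fit and test with DESeq2 1.42.0 and 16 other alternatives were tried.

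The members and gene lists were chosen with earlier results of these data known. Named were the 5 genes, Smo, the pathway lists, marker genes as checks, and the nearest genes in profile (5 for Gfra2, 3 for others whose group means span at least 1 log2 unit). Log2 CPM used a prior count of 2. Some genes of the lists, counted in their totals, are not reported here by name.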

Additional observations from a re-analysis of the deposited data

How the results depend on the processing

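Of the 54 calls of pathway genes outside the 5 genes, 22 held under all of the 17 alternatives that gave a value, 32 were lost under at least 1, and none changed direction. Leaving out 1 library at a time gave 1304 to 2924 called genes between KO- and WT-labelled libraries (3100 with all), 1401 to 3615 between Het- and WT-labelled (3403), 8 to 81 between SmoM2- and WT-labelled (30) and 36 to 1472 between KO- and Het-labelled libraries (1269). A lone library of a group was then assumed to vary like the others. The SmoM2- against WT-labelled count was 82 with DESeq2, 356 with no filter beyond 1 count per gene, 8 with the 4 compared libraries alone and 54 with sex as a term. The KO- against Het-labelled count was 2217 with no such filter and 613 with the gene length trend removed, and its split of 583 higher and 686 lower became 937 and 511 with library totals taken from the RPKM values and 517 and 929 with DESeq2. The SmoM2- against WT-labelled split of 21 and 9 became 16 and 11 with those totals.

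With the replicate block the counts were 3343, 3685, 54 and 1527 in the same order of comparisons. The labels do not say that a replicate number is shared between groups, and deviations of same-numbered libraries correlated with r from -0.06 to 0.39 across genes, so the numbers were not taken as pairs.

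Uncalled differences that changed sign were those of Gdnf between Het- and WT-labelled libraries, at -0.12 with sex as a term and from -0.17 to 0.19 with a library left out; of Nrtn between SmoM2- and WT-labelled libraries, at 0.012 with the gene length trend removed and from -0.094 to 0.092 with a library left out; and of Gfra2 (-1.51 to 0.12) and Ret (-0.46 to 0.11) in the latter comparison, with the highest value of both without WT replicate 1 and the lowest without WT replicate 2. The causes were not tested. Depth limits Ret most, with at most 21 counts.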
